A study of Danio rerio with 4 samples.

Results

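Eph receptors and their ligands, the ephrins, were examined in whole zebrafish embryos at sphere stage, a blastula stage shortly after zygotic transcription begins. Members were taken by gene symbol alone. Every listed gene whose symbol starts with eph or efn followed by the class letter A or B belongs to the family, which gave 33 of 32468 listed genes. They comprised 11 EphA receptors, 8 EphB receptors, 8 ephrin-A ligands and 6 ephrin-B ligands, spread over 16 chromosomes and 1 unplaced scaffold of the Zv9 assembly. The comparison asked which genes respond to the loss of the T-box transcription factor Eomesa, and set wild-type embryos of the AB strain against MZ*eomesa* embryos, with 2 samples in each group. MZ*eomesa* embryos carry the *fh105* allele of *eomesa*, also under the strain label AB, and lack the maternal as well as the zygotic gene product. They come from homozygous mutant parents by *in vitro* fertilisation. In some experiments of the study, embryos lacking only the maternal product stood in for them, and the labels do not say whether this was so here. No agent was given to either group. Levels are given as FPKM, read numbers scaled to the length of the transcript and the size of the library. Both samples of a group were combined into 1 FPKM for each gene, and wherever a pair of values is given the wild-type value comes first. No value below therefore has a replicate error, these values allow no test between the groups, and the depth of the libraries is unknown. Nothing in the labels says whether the samples of a group came from separate clutches.

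Eph receptors are the largest family of receptor tyrosine kinases in vertebrates. As a rule EphA receptors bind ephrin-A ligands, which are held to the membrane by a glycolipid anchor, and EphB receptors bind ephrin-B ligands, which span the membrane and have a cytoplasmic tail of their own. Receptor and ligand meet where cells touch, and signals pass into both cells, mostly leading to repulsion, the sorting of cell populations and the formation of tissue boundaries. In fish embryos these proteins are best known from hindbrain segments, somite boundaries and the separation of arteries from veins, all of which form after sphere stage.

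The targeted gene was checked first. *eomesa* itself (chromosome 19) had 62.6 FPKM in wild-type against 1.52 FPKM in MZ*eomesa* embryos, so the label of the mutant group holds for the targeted gene. Markers of blastula cells were abundant in both groups, with summed levels of 675 FPKM in wild-type against 771 FPKM in MZ*eomesa* embryos for *pou5f1*, *sox19b* and *sox3*. Most of the sum was *pou5f1*, with 493 and 588 FPKM. The others went opposite ways, *sox19b* with 96.1 and 58.0 FPKM and *sox3* with 85.2 and 125 FPKM. The 4 globin genes stayed at or below 0.159 FPKM in both groups. The 5 muscle markers summed to 4.50 and 4.99 FPKM, mostly from *actc1a*, and *myog* was listed at 0 in MZ*eomesa* embryos. The 3 neuron markers summed to 1.14 and 4.47 FPKM, of which *elavl3* had 0.728 and 3.96 FPKM. The other markers differed little, *neurog1* with 0.220 and 0.257 FPKM and *gap43* with 0.194 and 0.253 FPKM. Whether any such cells were present was not tested. Markers of other layers of the blastula differed between the groups. The 7 listed marker genes, for keratins and a claudin, of the enveloping layer, the outer epithelium of the embryo, were all higher in MZ*eomesa* embryos, with a sum of 286 FPKM in wild-type against 527 FPKM in MZ*eomesa* embryos. Of these, *KRT18 (1 of 3)* and *KRT18 (3 of 3)* stayed at or below 0.199 FPKM in both groups. The 3 markers of the yolk syncytial layer were all lower, with sums of 92.6 and 7.73 FPKM. In whole embryos, fewer cells of a type and less RNA per cell cannot be told apart.

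The family was dominated by a few genes, and the same 4 genes led it in both groups. In wild-type embryos 3 of the 33 members reached 10 FPKM, against 23.6% of all listed genes, 9 lay between 1 and 10 FPKM, 14 between 0.1 and 1 FPKM, and 7 below 0.1 FPKM. *efna1b* (ENSDARG00000018787), which encodes the ligand ephrin-A1, was the highest member with 20.8 FPKM in wild-type against 24.2 FPKM in MZ*eomesa* embryos. *ephb2b* (ENSDARG00000021539), a receptor for ephrin-B ligands, came next in wild-type embryos with 13.8 FPKM and had 15.7 FPKM in MZ*eomesa* embryos. *epha2* (ENSDARG00000017354) followed with 10.01 and 17.5 FPKM, and *ephb4b* (ENSDARG00000027112) with 9.96 and 9.13 FPKM. These 4 genes made up 64.4% of the summed FPKM of the family in wild-type against 62.5% in MZ*eomesa* embryos. Since the spread between samples is not known, neighbours as close as *epha2* and *ephb4b* in wild-type embryos cannot be put in order.

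**Figure D1:**
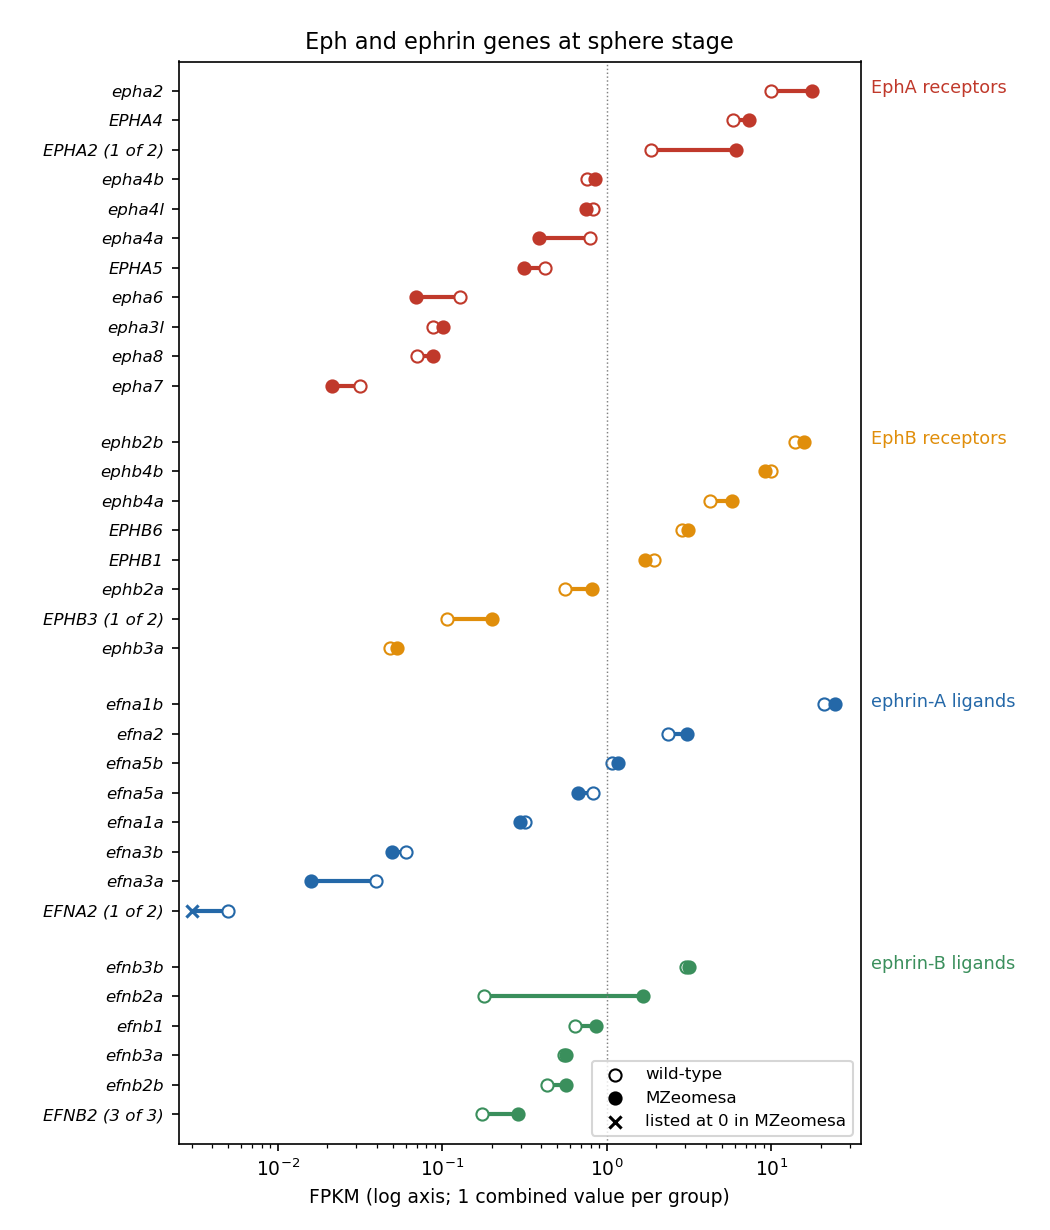
FPKM of each of the 33 Eph and ephrin genes on a log axis, with 1 open circle for wild-type and 1 filled circle for MZ*eomesa* embryos, grouped by class and ordered within a class by the mean; the dotted line marks 1 FPKM and a cross marks the gene listed at 0 in MZ*eomesa* embryos, drawn at the left edge. The widest gap is that of *efnb2a*, from 0.180 to 1.66 FPKM, followed among genes above 1 FPKM by *EPHA2 (1 of 2)*, from 1.86 to 6.08 FPKM.

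Differences are given as log2 ratios, MZ*eomesa* FPKM over that of wild-type embryos, with no pseudocount. A gene was called where it differed by at least 2-fold and its mean over both groups was at least 1 FPKM. Of the 33 members, 12 reached that mean, and 1 of them was called, *EPHA2 (1 of 2)*, which was higher in MZ*eomesa* embryos. Over all 14921 genes that met the same minimum and had a ratio, 9.2% were called, 5.4% as higher and 3.8% as lower in MZ*eomesa* embryos, so that 1 of 12 members, or 8.33%, is close to the share of all genes. Of the 12 members, 10 had a ratio above 0 and 2 below 0, and 10 stayed within 1.5-fold. Among all such genes, 48.9% had a ratio above 0 and 22.6% differed by at least 1.5-fold. The median log2 ratio of the 12 members was 0.20, where that of all such genes was -0.01.

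The EphA2 receptors differed most among the members above 1 FPKM, and both copies went the same way. In mammals EphA2 is a receptor of epithelial cells that binds ephrin-A1. *EPHA2 (1 of 2)* (ENSDARG00000022727, now named *epha2b*, chromosome 23, 24634981 to 24682058) had 1.86 FPKM in wild-type against 6.08 FPKM in MZ*eomesa* embryos, 3.27-fold higher, a log2 ratio of 1.71. *epha2* (now *epha2a*, chromosome 6, 45811778 to 45842930) was 1.75-fold higher, a log2 ratio of 0.81, and was not called. Among the 4580 genes whose mean lay within 2-fold of that of *EPHA2 (1 of 2)*, 2.21% had a log2 ratio at least as high, and among the 4918 genes of like level to *epha2* it was 5.65%. Both genes were singled out by these same ratios, so the shares describe their place among genes of like level and are no test. Neither span is shared with another listed gene. The genes next to *EPHA2 (1 of 2)* that were above 1 FPKM, *fam131c* and *spen*, were lower in MZ*eomesa* embryos, with log2 ratios of -0.30 and -0.95. Beside *epha2*, all 3 neighbours above 1 FPKM had ratios above 0, with log2 ratios of 0.75 for *rbm19*, 0.31 for *H6PD* and 0.24 for *CNTN4 (1 of 2)*. The higher EphA2 levels stood beside the higher marker sum of the enveloping layer given above. There the log2 ratio was 1.75 for *krt5*, 1.16 for *krt18*, 0.73 for *krt8*, 0.55 for *krt4* and 0.15 for *cldne*. The part of that layer in the EphA2 values was not tested.

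The other EphA receptors showed no common direction. EphA4 has long been known from the hindbrain and the somites, where it meets ephrin-B2 at cell boundaries. An *EPHA4* gene on scaffold Zv9_NA779 (ENSDARG00000086787) was the highest of its type, with 5.83 FPKM in wild-type against 7.35 FPKM in MZ*eomesa* embryos, giving a log2 ratio of 0.34. *epha4a* (ENSDARG00000054454, chromosome 2, 39772016 to 39840214), the copy that marks hindbrain segments later in fish, had 0.787 FPKM in wild-type against 0.389 FPKM in MZ*eomesa* embryos, giving a log2 ratio of -1.02. Its mean of 0.588 FPKM was below the minimum, so it was not called, and of the 3472 genes of like level 11.5% had a log2 ratio at least as low. *epha4b*, close by on the same chromosome, had 0.758 and 0.845 FPKM, and *epha4l* had 0.827 and 0.744 FPKM. Summed over these 4 genes, the level was 8.198 FPKM in wild-type against 9.33 FPKM in MZ*eomesa* embryos. The nearest gene above 1 FPKM before *epha4a* on the chromosome, *si:ch211-16k18.1*, had a log2 ratio of -0.89. On the other side of *epha4a*, *si:ch211-122l24.6* had a log2 ratio of -0.25, and *FP236331.1* was listed at 0 in wild-type embryos. Reads from near-identical copies can be divided between them, and the value of a single copy is then uncertain. *EPHA5* lay at 0.422 and 0.315 FPKM. *epha3l*, *epha6*, *epha7* and *epha8* had means below 0.1 FPKM, and the authors marked each of them as having too few reads to compare.

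EphB receptors had the highest sum of any class in both groups, 1.09-fold higher in MZ*eomesa* than in wild-type embryos. *ephb2b* had a log2 ratio of 0.18, and its copy *ephb2a* (0.558 FPKM in wild-type against 0.813 FPKM in MZ*eomesa* embryos) was 24.8 times lower than *ephb2b* in wild-type embryos. The EphB4 receptors, which serve veins as the partner of ephrin-B2 later in development, were both present. *ephb4b* had a log2 ratio of -0.13, while *ephb4a* (ENSDARG00000040346) had 4.22 FPKM in wild-type against 5.72 FPKM in MZ*eomesa* embryos, giving a log2 ratio of 0.44. Together they had 14.2 and 14.9 FPKM. *EPHB6*, a receptor whose human counterpart lacks kinase activity, had 2.85 and 3.09 FPKM, and *EPHB1* had 1.94 and 1.71 FPKM. *EPHB6* and the ligand gene *efna2* share their listed spans with another gene. *EPHB3 (1 of 2)* and *ephb3a* were at or below 0.201 FPKM in both groups. *EPHB3 (1 of 2)* had a log2 ratio of 0.92, and 24.1% of genes of like level were at least as high.

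Ephrin-A ligands came mostly from a single gene. *efna1b* gave 81.7% of the ephrin-A sum in wild-type against 82.1% in MZ*eomesa* embryos, and its log2 ratio was 0.21. Its copy *efna1a* had 0.318 and 0.295 FPKM, 65.5 times below *efna1b* in wild-type embryos. Ephrin-A2 and ephrin-A5 guide retinal axons in other vertebrates. *efna2* had 2.36 FPKM in wild-type against 3.06 FPKM in MZ*eomesa* embryos. *efna5b* had 1.07 and 1.16 FPKM, and *efna5a* had 0.819 and 0.668 FPKM. *efna3a*, *efna3b* and *EFNA2 (1 of 2)* were below 0.1 FPKM, and *EFNA2 (1 of 2)* was listed at 0 in MZ*eomesa* embryos. On chromosome 16, *efna3b* (25328170 to 25432719) and *efna1b* (25521947 to 25537442) lie beside a gene now named *efna4*. The symbol of that gene in the table, *si:dkey-246i14.3*, left it outside the family. It had 0.406 FPKM in wild-type against 0.981 FPKM in MZ*eomesa* embryos, and was looked up after its neighbours' values were known. Within this stretch *efna3b* had 0.0603 and 0.0493 FPKM, far below *efna1b*. *efna1a* and *efna3a* lie on the chromosome of *eomesa*, at 8.25 and 7.91 Mb from it.

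The largest relative difference among the 32 members with a ratio was that of an ephrin-B2 gene. Ephrin-B2 acts at somite boundaries and marks arteries in fish. *efnb2a* (ENSDARG00000020164, chromosome 9, 27137158 to 27160650) had 0.180 FPKM in wild-type against 1.66 FPKM in MZ*eomesa* embryos, 9.25-fold higher, a log2 ratio of 3.21. Its mean of 0.922 FPKM was just under the minimum of 1 FPKM, so it was not called, and it is described here after its values were seen. The member just above that minimum was *efna5b*, with a mean of 1.12 FPKM and a log2 ratio of 0.12. Of the 3615 genes within 2-fold of the mean of *efnb2a*, 0.941% had a log2 ratio at least as high. The nearest gene above 1 FPKM on either side, *arglu1a* and *si:dkey-111i23.1*, had log2 ratios of 0.24 and -0.16. In rank by FPKM, *efnb2a* moved from place 23 of 33 in wild-type to place 12 in MZ*eomesa* embryos.

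The other ephrin-B genes all stayed within 2-fold, and none was called. *efnb2b* had 0.431 and 0.563 FPKM and *EFNB2 (3 of 3)*, also on chromosome 1, had 0.174 and 0.287 FPKM. *efnb1* had 0.642 and 0.858 FPKM. *efnb3b*, for ephrin-B3, a midline cue for axons in the mouse spinal cord, was the highest of the class in both groups with 3.04 FPKM in wild-type against 3.15 FPKM in MZ*eomesa* embryos, and *efnb3a* had 0.549 and 0.565 FPKM. All 6 genes of the class had a ratio above 0, with a median log2 ratio of 0.40, but only *efnb3b* reached a mean of 1 FPKM. All genes of the table with a mean of 0.1 to 1 FPKM, where the other 5 lay, had a median log2 ratio of 0.19, so ratios above 0 were common at that level.

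**Figure D2:**
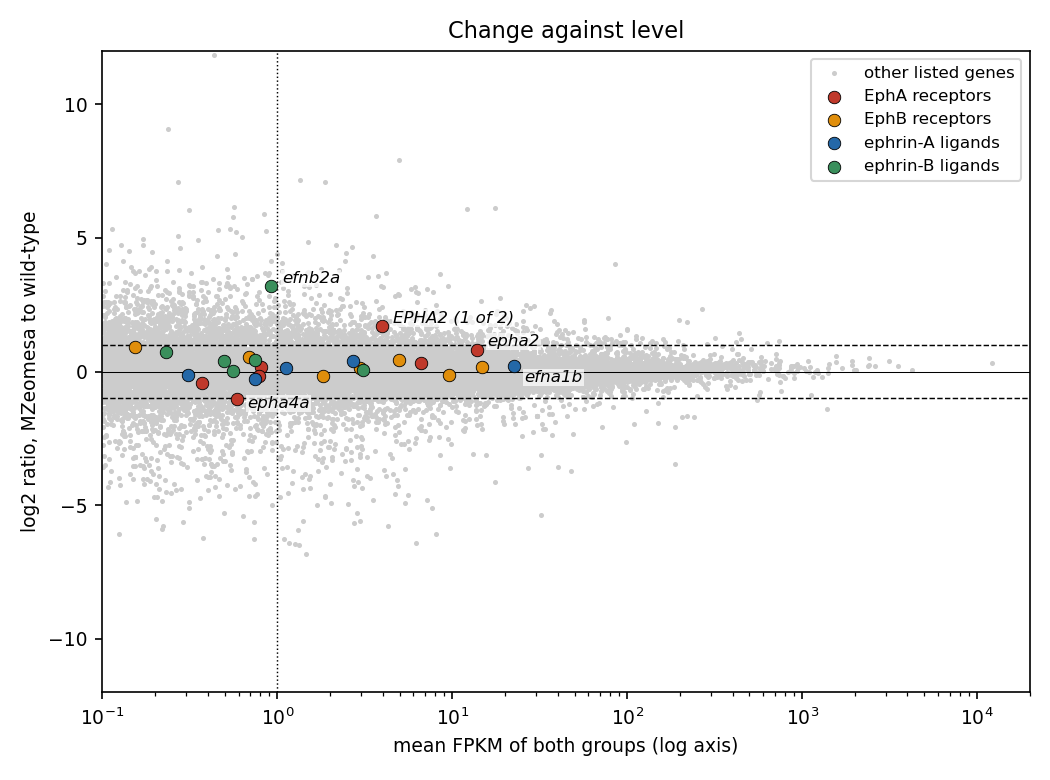
Log2 of MZ*eomesa* FPKM over wild-type FPKM against the mean FPKM of both groups (log axis) for genes whose mean reached 0.1 FPKM and that have a ratio, members coloured by class and other genes grey; dashed lines mark 2-fold and the dotted line 1 FPKM. Ratios spread more widely at low levels, and most members lie near 0, with *efnb2a* at 3.21, *EPHA2 (1 of 2)* at 1.71 and *epha4a* at -1.02.

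Low genes carried wider ratios throughout the table, which bears on how the low members are read. Among all genes with a mean of 0.1 to 1 FPKM, 32.0% differed by 2-fold or more, against 14.5% between 1 and 10 FPKM and 4.05% from 10 FPKM upwards. Of the 13 members between 0.1 and 1 FPKM, 1 was at least 2-fold higher, *efnb2a*, and 1 at least 2-fold lower, *epha4a*. With the minimum set at a mean of 0.1 FPKM, 3 of 25 members were called, 2 higher and 1 lower, where 15.6% of all genes were called, 9.08% higher and 6.5% lower. The share of members past 2-fold was thus no higher than that of all genes at either minimum. At a mean of 10 FPKM or more, none of the 3 members reached 2-fold.

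Summed by class, EphA receptors differed more between the groups than EphB receptors, mostly through the EphA2 pair. EphA receptors had a summed level of 20.8 FPKM in wild-type against 33.5 FPKM in MZ*eomesa* embryos, 1.61-fold higher. The EphA2 pair gave 92.3% of that difference, with sums of 11.9 and 23.6 FPKM. Without the pair the EphA sums were 8.94 and 9.92 FPKM. EphB receptors had 33.5 FPKM in wild-type against 36.4 FPKM in MZ*eomesa* embryos. The ratio of EphA to EphB sums was therefore 0.62 in wild-type against 0.92 in MZ*eomesa* embryos.

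Among the ligands, the ephrin-B sums rested on little RNA. Ephrin-A ligands had 25.5 FPKM in wild-type against 29.4 FPKM in MZ*eomesa* embryos, and ephrin-B ligands 5.01 and 7.09 FPKM. *efnb2a* gave 71.4% of the ephrin-B difference and 23.5% of the ephrin-B sum in MZ*eomesa* embryos, against 3.59% in wild-type embryos. Receptor RNA exceeded ligand RNA by 1.78 times in wild-type against 1.92 times in MZ*eomesa* embryos. For class B alone receptors exceeded ligands by 6.69 and 5.14 times. For class A the ratio of receptors to ligands was below 1 in wild-type embryos, at 0.82, and above 1 in MZ*eomesa* embryos, at 1.14. That crossing rested on the EphA2 pair. Without the pair the EphA sums, 8.94 and 9.92 FPKM, were below the ephrin-A sums in both groups. Over all 32468 listed genes, the summed level was 527031 FPKM in wild-type against 552517 FPKM in MZ*eomesa* embryos, giving a log2 ratio of 0.07. Over all 33 members the sums were 84.9 and 106.5 FPKM, a log2 ratio of 0.33. The 12 members with a mean of at least 1 FPKM summed to 77.8 and 97.9 FPKM, also a log2 ratio of 0.33.

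**Figure D3:**
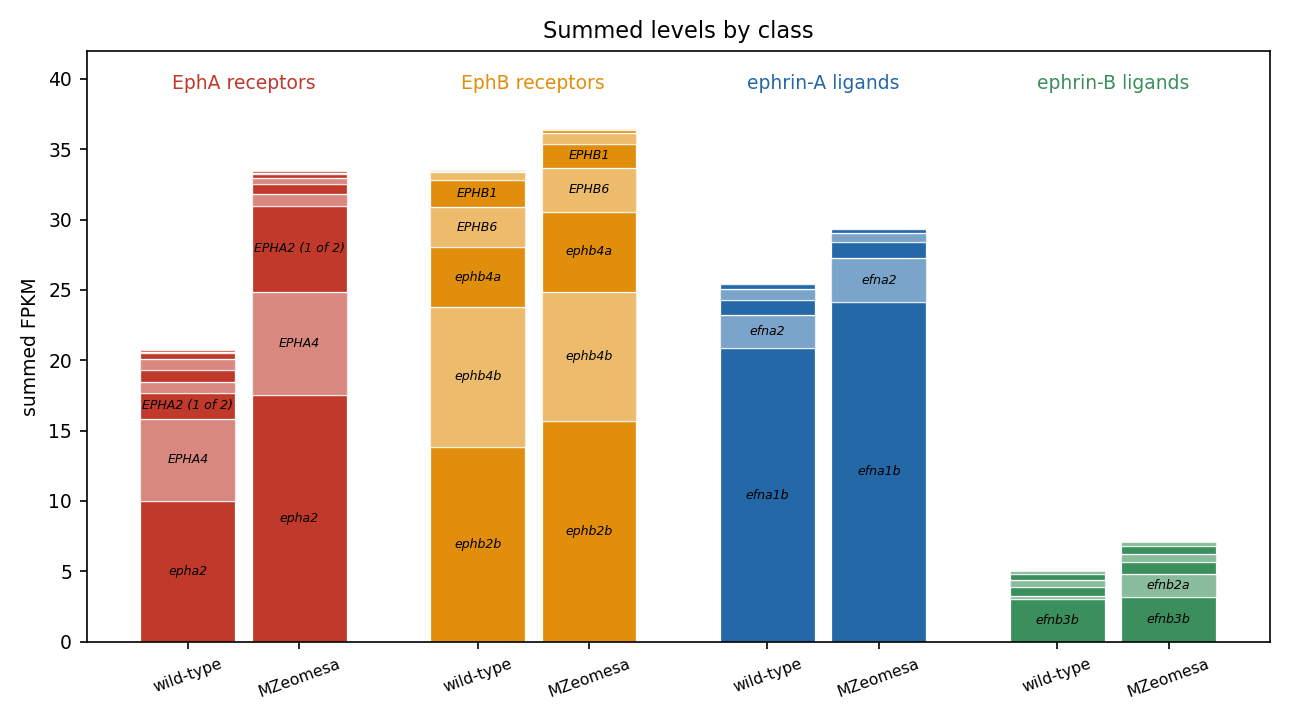
Summed FPKM of the 4 classes in wild-type and MZ*eomesa* embryos, each bar stacked by gene with the highest gene at the base and names given for genes of 1.6 FPKM or more. The EphA bar is 20.8 FPKM in wild-type against 33.5 FPKM in MZ*eomesa* embryos, and most of the gap is that of *epha2* and *EPHA2 (1 of 2)*.

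Members were also looked up in the study's own lists, of which only the gene names and listed sites were used. The share of all listed genes that these lists name was not counted, so membership is given for single genes and not read as a trait of the family. The names *epha4a*, *efna5a* and *ephb4a* stand beside peaks of Smad2, the transcription factor that carries Nodal signals. Those of *efna5a* and *ephb4a* stand beside peaks that Smad2 and Eomesa share. The 2 members at shared peaks had log2 ratios of -0.29 for *efna5a* and 0.44 for *ephb4a*, both under 2-fold. The list of Eomesa peaks was held in part and not used here. *efnb2a* and *efna1a* are on the list of genes responsive to the Nodal ligand *ndr1*, and their log2 ratios were 3.21 and -0.11. That list holds genes raised and genes lowered by *ndr1*, and the direction was not taken from it. The study lists a site for Foxh1, a partner of Smad2, in peaks beside *ephb4a* (chromosome 5, 70801142 to 70856493) and *epha4a*. It is shown because the same letters stand beside members that lay on opposite sides of 0. Capitals mark the match to the core motif AATNNACA, where each N was limited to A or C in the search. The site is written as the study lists it, and its strand is not given in the sources used here.
*ephb4a*: gccAATCCACA
*epha4a*: gccAATCCACA
The letters are identical. In MZ*eomesa* embryos *ephb4a* was 1.36-fold higher and *epha4a* 2.02-fold lower. Neither gene was called, and the mean of *epha4a*, 0.588 FPKM, was below the minimum. With a pseudocount of 1 the log2 ratio of *epha4a* was only -0.36. Whether the site bears on either value was not tested. The match is a description of the site and says nothing of whether Foxh1 is bound there.

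Genes that relay Eph and ephrin signals, listed together with proteases and phosphatases, mostly stayed within 2-fold. They summed to 1919 FPKM over 90 entries in wild-type embryos, against 54.3 FPKM over the 19 receptors. The list of such genes held 90 entries by symbol, of which 73 reached a mean of 1 FPKM. Of these, 1 was at least 2-fold higher and 3 at least 2-fold lower in MZ*eomesa* embryos, 5.48% against the 9.2% of all genes, and the median log2 ratio was -0.02. *sdcbp*, for syntenin, which binds the tails of ephrin-B ligands in mammals, had 5.35 and 2.48 FPKM. *pard6b*, for the polarity protein Par6, had 2.10 and 0.923 FPKM and shares its span with other genes.

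The widest difference among the relay genes was that of an adaptor. *NCK1 (2 of 2)* (ENSDARG00000074262, chromosome 2, 24733455 to 24750945), whose product links phosphorylated receptors to the actin cytoskeleton, had 10.3 FPKM in wild-type against 0.341 FPKM in MZ*eomesa* embryos, giving a log2 ratio of -4.92. The 3 other Nck genes all stayed within 2-fold. *nck1* had 8.64 and 11.0 FPKM, *nck2a* 11.2 and 6.92 FPKM and *nck2b* 5.77 and 5.004 FPKM. Its neighbours above 1 FPKM within 3 genes on either side had log2 ratios from -0.91 for *gyg1* to 0.47 for *stag1*, and *gyg1* shares its span with *hltf*. Src-family kinases, which pass on signals from both receptors and ephrin-B ligands, had log2 ratios between -0.05 and 0.19 in the 4 genes above 1 FPKM. *adam10a*, for a protease that cuts ephrins in other species, had 79.8 and 91.6 FPKM, while its copy *adam10b* had 3.98 and 2.57 FPKM.

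Other families of guidance molecules were set beside the 9.2% of all genes that were called. Of 50 semaphorin, plexin and neuropilin genes, 26 reached a mean of 1 FPKM, and 1 was called on each side, 7.69% in all: *sema6dl* with 20.6 FPKM in wild-type against 46.6 FPKM in MZ*eomesa* embryos and *sema3ga* with 4.41 and 2.06 FPKM. Their median log2 ratio was -0.09. Of 9 slit and robo genes 3 reached the minimum, too few to read a share from, and *slit1a* was called with 0.568 and 1.43 FPKM. Its mean of 1.002 FPKM met the minimum only through the higher MZ*eomesa* value, so its call is no separate support. Of 20 netrin genes and netrin receptors 7 reached the minimum, 0 were called, and the median was -0.02. With the values of 0.20 for Eph receptors and ephrins and -0.01 for all genes, these medians span 0.3 or less on the log2 scale, and no spread between samples is at hand to set them against.

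**Figure D4:**
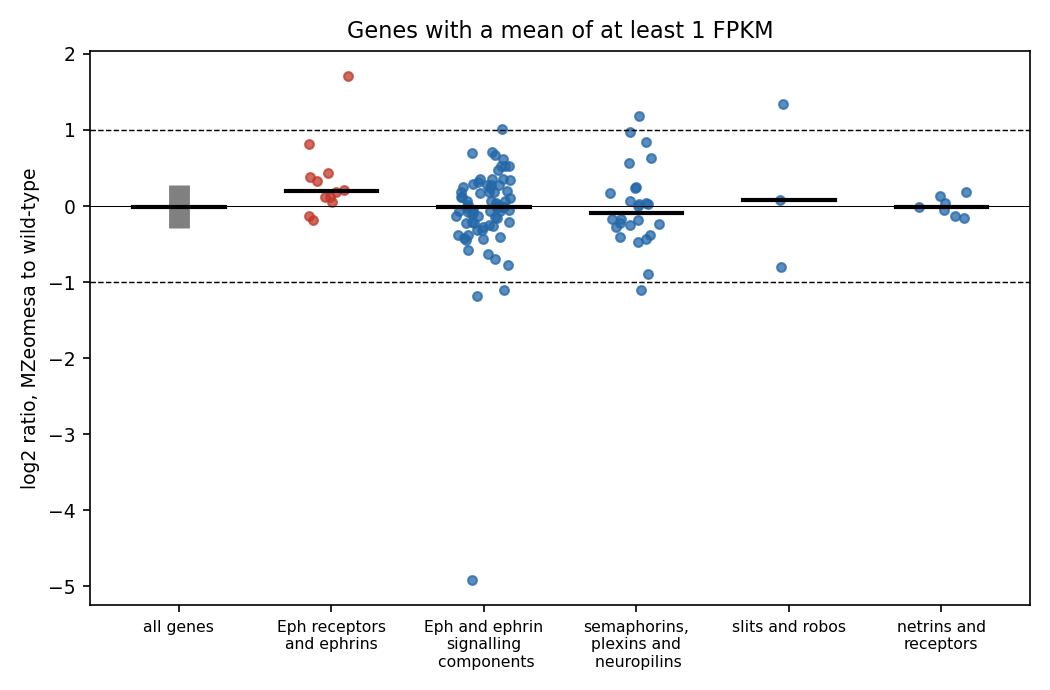
Log2 of MZ*eomesa* FPKM over wild-type FPKM for genes whose mean reached 1 FPKM, with 1 point per gene, with black bars at the medians, dashed lines at 2-fold and, for all genes, a grey bar from the lower to the upper quartile. The 12 Eph and ephrin genes have a median of 0.20, and the lowest point of the signalling components, at -4.92, is *NCK1 (2 of 2)*.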

How the data were processed

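Libraries were made from poly(A) RNA of whole embryos. Per the labels and the paper's methods, the authors mapped single reads with TopHat2 2.0.5 to Zv9 and compared the groups with Cufflinks, whose version and annotation are not given in the sources used here, dividing reads with more than 1 mapping position among those positions. The values in the deposited table are FPKM, with 1 value per gene and group and 0 columns for single samples. Its further columns hold the authors' fold changes, test statistics, p-values and q-values, which were not used, and a status for each gene, from which only the mark for too few reads was taken. Spans are printed as that table gives them, and genes read together can share 1 listed span. Current symbols came from a table of gene identifiers, in which 25 of 33 members had a symbol. Of the members, 9 kept the symbol used here, case ignored, and *epha8* is now listed as *si:ch211-162h21.1*.

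Log2 ratios, calls (at least 2-fold, mean of at least 1 FPKM), medians and sums were computed with Python 3.11.15, numpy 2.4.6 and pandas 2.3.3 and drawn with matplotlib 3.10.9. The calling step was tested on simulated data with large planted changes and less noise than these data hold. That checks the code and not the calls made here. Members with a mean of at least 1 FPKM are named with both values, and other genes named are those past 2-fold in their list or were chosen after their values were seen. The members, lists and thresholds were chosen with earlier results of these data known. Alternatives covered the fold, the minimum, pseudocounts of 1 and 0.1, centring and shared spans. No sequence of a promoter or protein was used here. The values of some genes of the signalling list are not reported here.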

Additional observations from a re-analysis of the deposited data

How the results depend on the processing

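No paired analysis was possible because the deposited columns combine both samples of a group and carry no replicate number, and for the same reason no replicate could be left out. Where no replicate error exists, a value was taken as moved when it shifted by more than 1.5-fold. The count of called members, 1 at the thresholds used, was 2 of 12 at 1.5-fold (with *epha2*; 22.6% of all genes), 3 of 25 at a minimum mean of 0.1 FPKM (with *efnb2a* and *epha4a*; 15.6%), 4 of 32 with no minimum (with *efna3a* in addition; 21.3%) and 0 of 5 at a minimum mean of 5 FPKM (5.29%). Asking for 1 FPKM in either group, an alternative chosen after seeing the data, gave 2 of 13, with *efnb2a*, where all genes gave 10.6%. *efnb2a* met that minimum only through its MZ*eomesa* value, the higher of the pair, so its call there is no separate support. At 3-fold, with pseudocounts of 1 or 0.1, with centring on the median and without shared spans it was 1, *EPHA2 (1 of 2)*. The median log2 ratio of the members ran from 0.15 with no minimum to 0.21 at a minimum of 5 FPKM. Of 42 values of 14 single members under the pseudocounts and centring, 2 moved, both with log2(FPKM + 1): *efnb2a* to 1.18 and *epha4a* to -0.36. Restricting the sums to members with a mean of at least 1 FPKM left only *efnb3b* in the ephrin-B class. The ephrin-B sums were then 3.04 FPKM in wild-type against 3.15 FPKM in MZ*eomesa* embryos, and no other class moved by that much. The depth of the libraries is unknown, so no detection limit is given for the members listed near 0.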
